A study of Mus musculus with 10 samples.

Results

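The genes described here are 38 members of glycolysis and of the cellular response to low oxygen in mouse hippocampal microglia, the resident macrophages of the brain. They were listed by name, by a rule that uses no measured value but was drawn up with earlier results of these data known, and run from the transporters of glucose and lactate through the glycolytic enzymes to the hypoxia-inducible factors, their restraints and their targets. All 38 were among the 19782 genes of the table, and 36 were among the 12505 that passed a filter on low counts and were tested. Ndrg1 and Adm did not pass it. RNA was sequenced from cells isolated as CD45low CD11b+ from the hippocampus, in 3 groups. The repopulated group (3 libraries) came from 5xFAD mice that were given the inhibitor PLX3397 at 290 mg per kg of chow for 1 month from 4 months of age, then normal diet for 1 month. PLX3397 blocks the receptor Csf1r, on which microglia depend for survival, so that the cells are depleted and return once the drug is withdrawn. The control group (3 libraries) came from 5xFAD mice on normal diet, and the wild-type group (4 libraries) from WT mice on normal diet. The 5xFAD line carries human transgenes of the amyloid precursor protein and presenilin with familial Alzheimer disease mutations, driven by a neuronal promoter, so the transgenes are not aimed at the microglia themselves. No source used here gives the ages of the control and wild-type mice, or states that each library is a different animal. The p-values therefore measure a spread between libraries that may be technical.

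Glycolysis splits glucose to pyruvate in the cytosol, and lactate dehydrogenase turns pyruvate to lactate, which leaves the cell through monocarboxylate transporters. When oxygen falls, the alpha subunits of the hypoxia-inducible factors (HIF) escape hydroxylation by the Egln enzymes and destruction through Vhl, and they switch on genes of glucose uptake, of nearly every glycolytic step and of blood vessel growth. In macrophages and microglia the same factors are also raised by inflammatory signals, and a shift towards glycolysis is known from microglia exposed to amyloid. Hif1a protein is set largely by its destruction, so the transcript levels given here do not measure HIF activity.

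Libraries held 18501136 to 23286814 estimated counts. Levels are in CPM, counts relative to library totals that were scaled by the TMM method, which sets the bulk of genes level between libraries. A gene was called where edgeR's quasi-likelihood test gave a Benjamini-Hochberg adjusted p under 0.05 over all tested genes. Wild-type 3 stood apart, with a mean correlation to its own group of 0.920, where the rest of its group had 0.944 to 0.956. Summed markers of neurons were at 63.1 CPM there and at 11.2 to 13.1 in the other wild-type libraries. The summed level of 4 Y-linked genes was 5.12 to 16.0 CPM of unscaled totals in control 1, control 3 and wild-type 2, and 342 to 484 in the other libraries, so control 2 alone among the controls carried these transcripts. Defining markers of microglia were present in all libraries, with a summed level of 43652 to 58805 CPM in repopulated, 54285 to 59047 in control and 50056 to 61598 in wild-type libraries. RNA was measured in bulk, where fewer cells of a type and less RNA per cell cannot be told apart.

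The first comparison asked how the module stood in microglia of 5xFAD mice on normal diet, against wild type. Of the 36 tested members 17 rose in control microglia and 0 fell. The background was 10.1% of all tested genes called higher, 8.04% called lower and 18.1% called in either direction. The 17 that rose were the enzymes Gpi1, Aldoa, Tpi1, Gapdh, Pgk1, Pgam1, Pkm and Ldha, the transporters Slc16a1 and Slc16a3, Hif1a, Egln3, the targets Bnip3, Ankrd37, Vegfa and Flt1, and the cytokine Mif. The members had a median log2 fold change of 0.46, beside -0.06 over all tested genes, whose quartiles lay at -0.42 and 0.30. In 18 members every control library lay above every wild-type library, and in 2, Hk1 and Vhl, every control library lay below, where 14.1% and 12.6% of all tested genes did so. At an unadjusted p under 0.05, 20 members were higher and 2 lower, where 15.7% of all tested genes were higher and 16.1% lower. DESeq2 called 18 members higher and 0 lower, where it called 12.1% and 9.63% of all genes with an adjusted p. The counts from limma-voom were 17 and 0, where it called 10.5% and 7.25% of all genes. On unscaled library totals, an alternative chosen after seeing the data, the median of all genes moved to -0.27, and 16 members rose and 3 fell (Hk1, Ldhb and Vhl). On those totals 814 of 3079 called genes were higher in control microglia, against 1260 of 2265 with scaling.

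**Figure D1:**
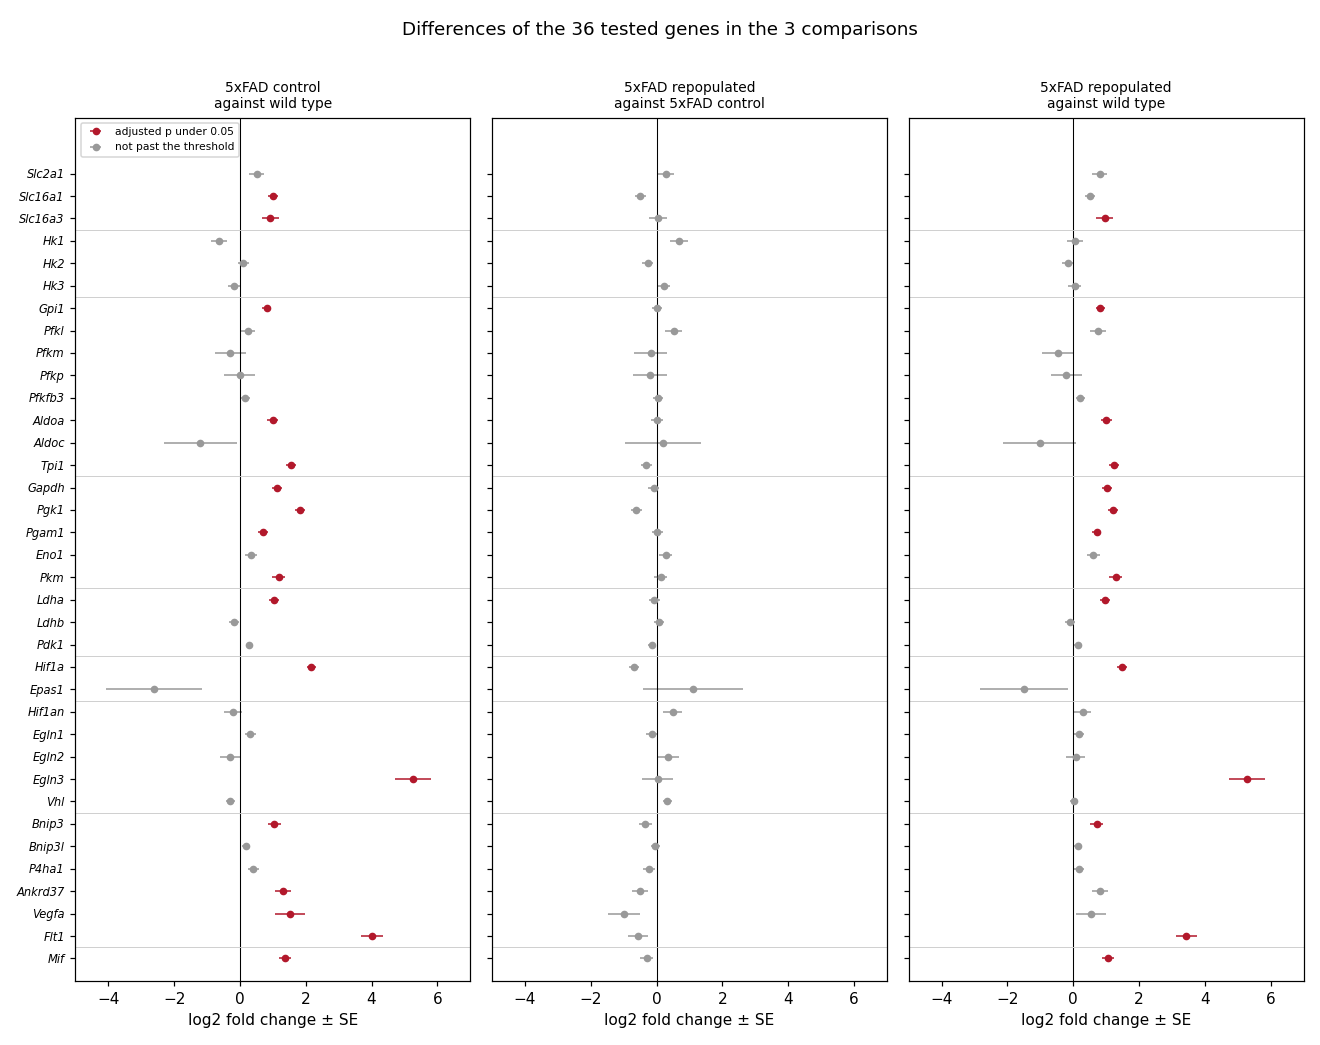
Log2 fold changes with standard errors (x axis) of the 36 tested members (y axis, ordered by role) in the 3 comparisons, red where the edgeR adjusted p was under 0.05 and grey otherwise. In the left panel 17 members are red and all of these lie right of 0, in the middle panel none is red, and in the right panel 14 are red.

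HIF proteins bind DNA at a short core. The form taken as the core here is ACGTG, whose reverse complement is CACGT, and the form GCGTG was counted in addition. Promoters were taken from RefSeq on GRCm38.p6, from 250 bases before to 50 after each listed start, and 35 of the 38 members had an entry, with none for Epas1, Bnip3l and Ndrg1. Stretches of 160 bases, ending at the base before the first listed start that holds the core, are shown for 4 members called in control microglia: the enzymes Pgk1 (chrX:106186940-106187099, plus strand) and Ldha (chr7:46845644-46845803, plus strand), the mitochondrial protein gene Bnip3 (chr7:138909507-138909666, minus strand) and the factor Hif1a (chr12:73907707-73907866, plus strand). All are written 5′ to 3′ on the gene's strand, and capitals mark ACGTG or its reverse complement. Both overlap in the palindrome CACGTG.
Pgk1: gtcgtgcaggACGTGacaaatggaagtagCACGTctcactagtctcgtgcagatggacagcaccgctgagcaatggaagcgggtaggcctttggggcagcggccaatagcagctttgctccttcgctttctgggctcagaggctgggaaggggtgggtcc
Ldha: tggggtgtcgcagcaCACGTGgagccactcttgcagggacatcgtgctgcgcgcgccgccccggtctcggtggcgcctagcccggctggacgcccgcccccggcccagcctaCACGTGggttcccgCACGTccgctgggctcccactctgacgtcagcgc
Bnip3: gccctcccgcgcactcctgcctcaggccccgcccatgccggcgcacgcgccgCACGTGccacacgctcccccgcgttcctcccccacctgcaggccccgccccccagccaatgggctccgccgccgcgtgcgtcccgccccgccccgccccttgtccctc
Hif1a: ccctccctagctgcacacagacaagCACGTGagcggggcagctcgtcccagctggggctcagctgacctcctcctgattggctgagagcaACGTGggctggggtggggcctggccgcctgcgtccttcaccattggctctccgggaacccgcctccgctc
Pgk1 held 2 separate cores in this stretch and Ldha 3 separate places, 2 of them the palindrome CACGTG. Among members with a promoter entry, 24 of 34 tested genes (70.6%) held ACGTG or CACGT in at least 1 listed promoter, as did 28.96% of 10081 tested genes. Genes can have several listed starts. Counted by promoter, the share was 55.1% of the members' 49 promoters and 24.9% of 12939 promoters of tested genes. The median GC content of these promoters was 62.3% for the members and 60.0% for all tested genes. The core was in 14 of the 17 members that rose in control microglia (82.4%) and in 10 of the 17 that were tested and did not (58.8%), beside 31.4% of 992 genes of the table that rose. Gpi1, Tpi1 and Flt1 rose and held no core in any listed promoter, whereas the 4 stretches shown were taken from members that hold it. With GCGTG or CACGC counted as well, the share was 88.2% of members, in both those that rose and those that did not, and 66.2% of all tested genes. A match is a description of the letters in the window, and binding was not measured.

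Both lactate transporter genes rose in control microglia, and the glucose transporter gene did not pass. Slc16a1, which encodes the lactate transporter MCT1 (Entrez 20501, chromosome 3, 104638664 to 104658462, GRCm38.p6), was at 38.7, 29.8 and 30.7 CPM in repopulated, 49.5, 39.1 and 50.7 in control and 27.2, 22.4, 22.4 and 20.8 in wild-type libraries. The 3 groups did not overlap, and control libraries were the highest. It rose 2.00-fold in control microglia (log2 fold change 1.00, SE 0.16, edgeR adjusted p = 0.000543). Slc16a3, which encodes MCT4, the exporter typical of glycolytic cells, was at 12.99, 17.6 and 10.2 CPM in repopulated, 14.5, 9.98 and 15.3 in control and 8.73, 4.89, 7.68 and 6.65 in wild-type libraries. Every library of both 5xFAD groups lay above the highest wild-type library. The rise was 1.90-fold (log2 fold change 0.92, SE 0.26, edgeR adjusted p = 0.0224), and the adjusted p was 0.0527 to 0.0893 without wild-type 2 or 4 or control 1 or 3. Slc2a1, which encodes the glucose transporter GLUT1, was at 59.5, 69.7 and 51.1 CPM in repopulated, 56.5, 31.4 and 59.6 in control and 39.1, 29.5, 26.1 and 43.2 in wild-type libraries. Control 2 lay among the wild-type libraries while controls 1 and 3 lay above them, and the control group did not pass (edgeR adjusted p = 0.128, and 0.0269 without control 2).

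**Figure D2:**
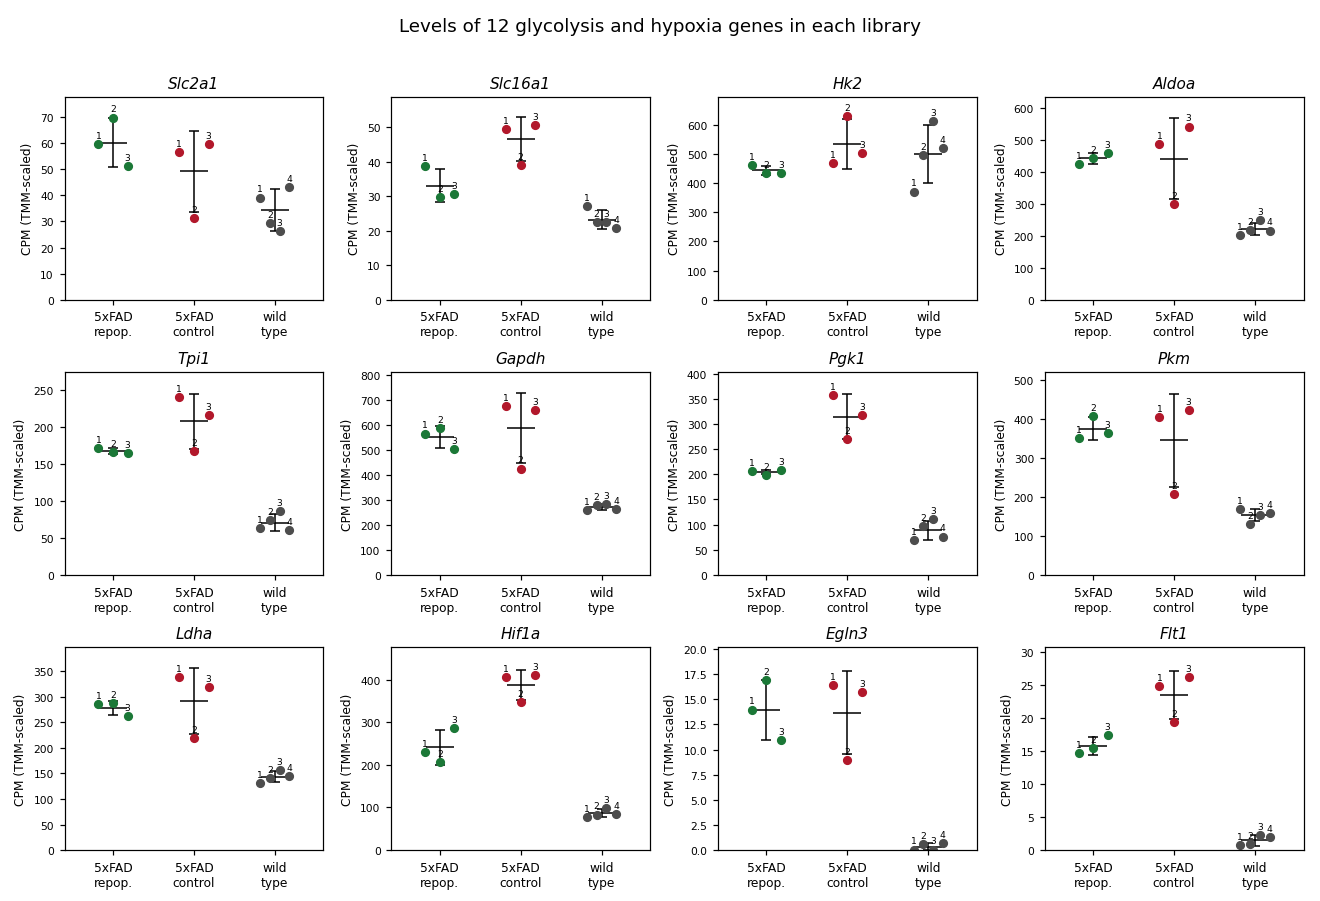
Levels in CPM (y axis) of 12 members in the repopulated, control and wild-type libraries (x axis), with points numbered by library and bars for the mean ± SD over 3, 3 and 4 libraries. All libraries of both 5xFAD groups lie above wild type in every panel but those of Slc2a1 and Hk2, and control 2 is the lowest control library in each panel except that of Hk2.

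None of the 3 hexokinase genes, whose enzymes trap glucose by phosphorylation, was called. Hk2, the inducible form and the most abundant of the 3 per length, was at 463, 435 and 436 CPM in repopulated, 469, 632 and 505 in control and 371, 496, 613 and 522 in wild-type libraries, and control and wild type overlapped (edgeR adjusted p = 0.721). Hk1, the form of most tissues, was at 7.46, 7.88 and 7.29 CPM in repopulated, 5.37, 4.23 and 4.43 in control and 9.55, 7.17, 5.78 and 6.65 in wild-type libraries. Controls were the lowest for this gene (log2 fold change -0.64, edgeR adjusted p = 0.0955). Its adjusted p was 0.0397 without wild-type 3. Hk3, a form of myeloid cells, ranged over 72.0 to 82.6 CPM in repopulated, 65.2 to 70.5 in control and 49.0 to 96.0 in wild-type libraries (edgeR adjusted p = 0.542).

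In the upper pathway the isomerases and the main aldolase rose while the phosphofructokinases did not pass. Tpi1, triosephosphate isomerase (Entrez 21991, chromosome 6, 124810586 to 124814158), was at 172, 166 and 165 CPM in repopulated, 240.2, 167 and 216 in control and 63.8, 73.7, 85.9 and 60.2 in wild-type libraries. Both 5xFAD groups lay well above wild type, with no overlap. Tpi1 rose 2.93-fold in control microglia (log2 fold change 1.55, SE 0.15, edgeR adjusted p = 7.14e-06). Aldoa, the main aldolase of most tissues, was at 427, 444 and 459 CPM in repopulated, 487, 299 and 543 in control and 203, 219.9, 249 and 217 in wild-type libraries. Control 2 was far below the other controls but above all wild-type libraries, and the rise was 1.99-fold (log2 fold change 0.99, SE 0.17, edgeR adjusted p = 0.00093). Gpi1, glucose phosphate isomerase, rose 1.75-fold, at 109.7 to 155 CPM in control against 70.7 to 81.2 in wild-type libraries (edgeR adjusted p = 0.000818). Pfkl, which encodes the liver form of phosphofructokinase and gave most of the phosphofructokinase transcript here, was at 107, 128 and 81.4 CPM in repopulated, 86.7, 43.2 and 90.7 in control and 75.9, 53.0, 49.3 and 72.5 in wild-type libraries. Control 2 was the lowest of all 10 libraries, and control against wild type did not pass (edgeR adjusted p = 0.54). Pfkm and Pfkp, the muscle and platelet forms, stayed at or under 6.16 CPM in every library, and Pfkfb3, which makes an activator of phosphofructokinase, had 67.0 to 81.6 CPM in control and 54.6 to 81.4 in wild-type libraries. These 3 did not pass, at edgeR adjusted p = 0.71, 0.988 and 0.481.

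Aldoc, the brain aldolase that astrocytes express strongly, depended on 1 library. It was at 25.1, 30.0 and 20.9 CPM in repopulated, 20.9, 14.4 and 31.3 in control and 13.2, 14.4, 170.2 and 7.73 in wild-type libraries. Wild-type 3 lay far above all others, and the other wild-type libraries were at or near the low end. Control against wild type had a log2 fold change of -1.21 (edgeR adjusted p = 0.5), and 0.91 without wild-type 3 (edgeR adjusted p = 0.0275). Wild-type 3 also had the highest summed markers of neurons, astrocytes and oligodendrocytes. It did not for endothelial cells, where its 22.2 CPM was the lowest of the wild-type group, or for pericytes and smooth muscle. The 9 astrocyte markers, of which 8 were tested, summed to 219 to 228 CPM in repopulated and 217 to 240 in control libraries, against 395 in wild-type 3 and 211 to 302 in the rest of the wild-type group. Wild-type 3 was the highest of the 10 libraries for 5 of the 9 (Aqp4, Slc1a2, Slc1a3, Gja1 and S100b) and not for Gfap, Aldh1l1, Gjb6 and Fgfr3, with Aldh1l1 at 0 there. Their part in the Aldoc value was not tested.

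In the lower pathway 4 of 5 enzymes rose in control microglia. Pgk1, phosphoglycerate kinase, an ATP-forming step (Entrez 18655, chromosome X, 106187100 to 106203699), was at 206, 199 and 208 CPM in repopulated, 357, 269 and 318 in control and 69.7, 97.4, 111 and 76.2 in wild-type libraries. The 3 groups did not overlap, with control the highest and repopulated between. Pgk1 rose 3.56-fold in control microglia (log2 fold change 1.83, SE 0.16, edgeR adjusted p = 2.33e-06), the largest fold among the called glycolytic enzymes of the list. Gapdh, often taken as a reference gene, was at 565, 588 and 502 CPM in repopulated, 675, 425 and 660.0 in control and 259, 277, 283 and 261 in wild-type libraries. Wild-type libraries lay close together and below all 5xFAD libraries. The rise was 2.17-fold (log2 fold change 1.12, SE 0.15, edgeR adjusted p = 0.000162). Pkm, pyruvate kinase, the last step of the pathway, was at 352, 408 and 364 CPM in repopulated, 405, 207 and 423 in control and 168, 131, 154 and 158 in wild-type libraries. Control 2 lay nearer to wild type than to the other controls, without overlap. Pkm rose 2.26-fold (log2 fold change 1.18, SE 0.20, edgeR adjusted p = 0.000811). Pgam1, phosphoglycerate mutase, rose 1.62-fold (edgeR adjusted p = 0.00406), at 136 to 165 CPM in control against 71.3 to 109 in wild-type libraries. Eno1, enolase, was at 569, 609.9 and 613 CPM in repopulated, 564, 309 and 602 in control and 335, 378, 448 and 401 in wild-type libraries. Control 2 lay below every wild-type library while controls 1 and 3 lay above, and the group did not pass (edgeR adjusted p = 0.246, and 0.0105 without control 2). Reads may be divided among near-identical gene copies in estimated counts. The related genes Eno1b, Gapdhs and Pgk2 had at most 32 counts in any library. Whether reads of these enzymes were divided with other copies was not tested.

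At the lactate branch the form that favours lactate rose and the other did not pass. Ldha, lactate dehydrogenase A (Entrez 16828, chromosome 7, 46842274 to 46855627), was at 285, 288 and 263 CPM in repopulated, 339, 219 and 319.5 in control and 131, 141, 156 and 145 in wild-type libraries. All 5xFAD libraries lay above all wild-type libraries, and the rise in control microglia was 2.04-fold (log2 fold change 1.03, SE 0.15, edgeR adjusted p = 0.000215). Ldhb, the form that favours the reverse reaction, was at 862, 757 and 930.5 CPM in repopulated, 849.5, 799 and 779 in control and 748, 939.7, 1126 and 829.7 in wild-type libraries, with the groups overlapping (edgeR adjusted p = 0.464). Pdk1, a kinase that keeps pyruvate out of the mitochondrial pathway, was at 144 to 158 CPM in control against 112 to 143 in wild-type libraries. Its control libraries all lay above wild type, but the difference did not pass (log2 fold change 0.29, edgeR adjusted p = 0.106, and 0.0366 without wild-type 3).

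Per length, the deposited TPM put Ldhb first among the members, with a mean of 1286 TPM over the 10 libraries, followed by Gapdh at 649, Eno1 at 489, Aldoa at 447 and Mif at 331. That order differs by group. Gapdh and Eno1 had 806 and 599 TPM in repopulated, 767 and 441 in control and 443 and 443.5 in wild-type libraries, and Aldoa had 559, 507 and 317 TPM in the same groups. TPM shares within enzyme families can be compared without a scaling between libraries. Ldha gave 20.1% ± 2.34 of lactate dehydrogenase TPM in repopulated, 21.6% ± 3.66 in control and 10.9% ± 1.11 in wild-type libraries (SD, n = 3, 3 and 4). Its lowest share in a 5xFAD library, 17.3% in control 2, lay above its highest in wild type, 11.9%. Both members of the family bear on this share. Ldhb, whose CPM overlapped between groups, was at 1239 ± 79.7 TPM in repopulated, 1056 ± 42.2 in control and 1494.5 ± 155 in wild-type libraries (SD, n = 3, 3 and 4), with every 5xFAD library below every wild-type library. Ldha was at 311 ± 28.0 TPM in repopulated, 291 ± 57.7 in control and 181 ± 6.92 in wild-type libraries. Egln3 gave 19.1% ± 1.56 of the prolyl hydroxylase TPM in repopulated, 19.9% ± 4.67 in control and 0.633% ± 0.619 in wild-type libraries (SD, n = 3, 3 and 4). Hk2 gave 75.1% ± 1.26, 80.8% ± 2.83 and 77.2% ± 8.38 of hexokinase TPM in the same groups, with control and wild type overlapping. Pfkl held 80.8% to 96.1% of phosphofructokinase TPM in every library, and Hif1a at least 97.9% of the TPM of Hif1a and Epas1. For Ldha and Egln3 the differences in share between control and wild type, and between repopulated and wild type, had p = 0.0571 each in 2-sided exact permutation tests, the smallest that 4 against 3 libraries allow. Between 3 and 3 libraries the smallest is 0.1. Over all 51 tests of shares in 7 families the smallest adjusted p was 0.343, so the design could not pass a threshold of 0.05 here.

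**Figure D3:**
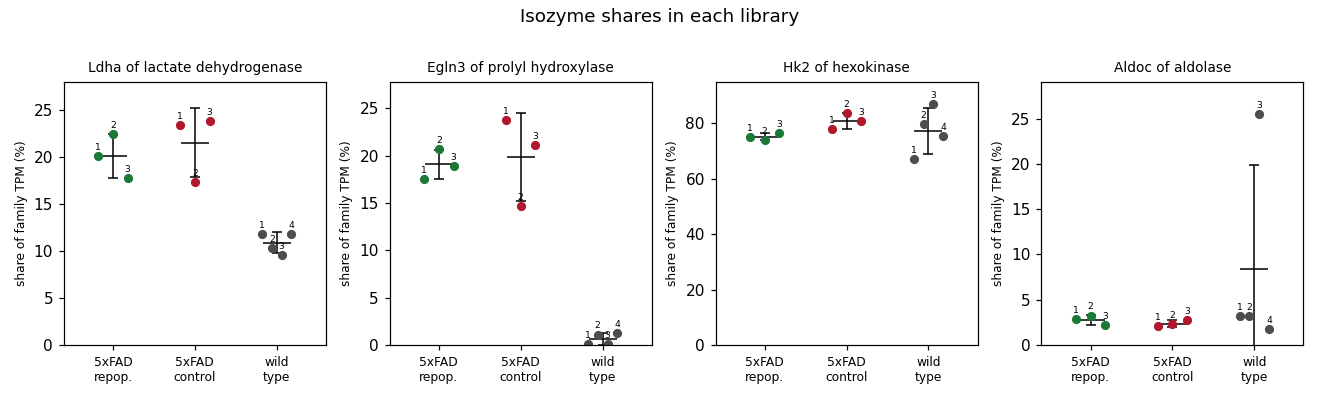
Share of the family's summed TPM in percent (y axis) held by Ldha, Egln3, Hk2 and Aldoc in the repopulated, control and wild-type libraries (x axis), with points numbered by library and bars for the mean ± SD over 3, 3 and 4 libraries. Ldha and Egln3 lie higher in every 5xFAD library than in every wild-type library, and wild-type 3 alone has 25.5% Aldoc.

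Among the HIF genes the transcript of the main alpha subunit rose and 1 of its restraints rose with it. Hif1a (Entrez 15251, chromosome 12, 73901324 to 73947554) was at 229, 207 and 287 CPM in repopulated, 407, 347 and 411 in control and 78.5, 83.3, 98.9 and 85.2 in wild-type libraries. The 3 groups did not overlap, with control the highest, repopulated between and wild type the lowest. It rose 4.49-fold in control microglia (log2 fold change 2.17, SE 0.14, edgeR adjusted p = 8.72e-08), which held in every alternative tried. Epas1, the HIF-2 alpha subunit known best from vessels, was scarce, with 0, 2 and 22 counts in repopulated, 1, 2 and 7 in control and 0, 17, 54 and 14 in wild-type libraries. A difference in Epas1 was not detectable with counts this low (edgeR adjusted p = 0.236). Egln3, the prolyl hydroxylase PHD3, which marks HIF subunits for destruction and is itself a known HIF target (Entrez 112407, chromosome 12, 54178981 to 54203874), was at 14.0, 16.9 and 10.96 CPM in repopulated, 16.4, 8.92 and 15.7 in control and 0.0482, 0.570, 0.0486 and 0.719 in wild-type libraries. Wild type was near 0, with 945 counts over the 3 repopulated and 843 over the 3 control libraries, against 30 over the 4 wild-type libraries. It rose 38.3-fold in control microglia (log2 fold change 5.26, SE 0.54, edgeR adjusted p = 1.1e-05), 59.5-fold without wild-type 4, 59.3-fold with limma-voom and 63.7-fold with the replicate block. The other restraints did not pass. Egln1 and Egln2, the other prolyl hydroxylases, had 25.1 to 30.7 and 16.7 to 23.7 CPM in control against 18.2 to 26.4 and 10.6 to 37.4 in wild-type libraries (edgeR adjusted p = 0.21 and 0.554). Hif1an, which hydroxylates the activation domain, and Vhl, which carries hydroxylated subunits to destruction, had log2 fold changes of -0.21 and -0.29 (edgeR adjusted p = 0.631 and 0.133).

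Of the 8 HIF targets on the list 6 were tested and 4 rose in control microglia. Flt1, the VEGF receptor VEGFR1, which monocytes and macrophages also carry (Entrez 14254, chromosome 5, 147561604 to 147726438), was at 14.7, 15.4 and 17.3 CPM in repopulated, 24.8, 19.4 and 26.2 in control and 0.724, 0.855, 2.28 and 1.93 in wild-type libraries. The 3 groups did not overlap, and control was the highest. Flt1 rose 16.1-fold (log2 fold change 4.01, SE 0.33, edgeR adjusted p = 1.07e-06). Endothelial cells express Flt1 too. The 9 endothelial markers, of which 3 were tested, summed to 24.97 to 29.7 CPM in repopulated, 18.6 to 20.8 in control and 22.2 to 44.0 in wild-type libraries. Most of the sum came from Pecam1 and Kdr. Pecam1 was at 14.4 to 20.3 CPM in repopulated, 9.11 to 14.3 in control and 11.9 to 38.1 in wild-type libraries and fell in control microglia (edgeR adjusted p = 0.0201). Kdr was at 8.71 to 10.1 CPM in repopulated, 5.74 to 11.2 in control and 4.84 to 9.62 in wild-type libraries (log2 fold change 0.24 in control against wild type, edgeR adjusted p = 0.61). Of the other 7, Cldn5 and Ly6c1 were at 0 in all 6 5xFAD libraries and Tie1 in all 10, and no value was above 1.24 CPM. Their part in the Flt1 value was not tested. Bnip3, which drives removal of mitochondria, was at 86.6, 93.6 and 108 CPM in repopulated, 133, 115 and 116 in control and 43.2, 68.1, 78.2 and 45.4 in wild-type libraries. Control libraries were the highest and wild type the lowest, without overlap, and the rise was 2.07-fold (log2 fold change 1.05, SE 0.19, edgeR adjusted p = 0.00143). Ankrd37, a small ankyrin protein gene and common hypoxia marker, rose 2.48-fold, at 10.2, 9.02 and 9.10 CPM in control against 3.13, 4.13, 4.37 and 3.55 in wild-type libraries (log2 fold change 1.31, SE 0.23, edgeR adjusted p = 0.00139). Vegfa, the vessel growth factor, was at 4.09, 3.78 and 3.63 CPM in control against 1.16, 1.33, 2.09 and 0.764 in wild-type libraries. The rise of 2.87-fold (edgeR adjusted p = 0.0313) was that of a scarce transcript. Without wild-type 1, 2 or 4 or any 1 control library its adjusted p was 0.055 to 0.109. Bnip3l, the relative of Bnip3, and P4ha1, which hydroxylates collagen, did not pass (edgeR adjusted p = 0.395 and 0.0956, and 0.0105 for P4ha1 without wild-type 4). Adm, the peptide adrenomedullin, had 1, 0 and 8 counts in repopulated, 10, 5 and 0 in control and 0 in all 4 wild-type libraries. Ndrg1, a stress gene, had 1, 21 and 11 counts in repopulated, 3, 5 and 10 in control and 0, 0, 0 and 2 in wild-type libraries. Both genes lay below the filter on low counts. Mif, a cytokine that macrophages store and release, was at 84.0, 79.1 and 94.0 CPM in repopulated, 124, 84.8 and 109 in control and 28.4, 40.7, 54.7 and 40.5 in wild-type libraries. All 5xFAD libraries lay above all wild-type libraries, and Mif rose 2.58-fold (log2 fold change 1.37, SE 0.19, edgeR adjusted p = 0.000184).

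Control 2 differed from the other controls in many members. It was the lowest control library in 26 of 36 tested members and in 16 of the 17 called ones, where it was the lowest in 40.2% of all tested genes. Pkm was at 207 CPM in control 2, against 405 and 423 in controls 1 and 3, and Hif1a at 347 against 407 and 411. The deviation of control 2 from the other controls went with GC content, with a Spearman rho of -0.360 across 12226 genes and -0.490 across the 36 members, which share these libraries and their depth. Across those genes the log2 fold change of control against wild type had a rho of -0.263 with GC content, that of repopulated against control 0.436 and that of repopulated against wild type 0.135. With counts corrected for GC content and length, 19 members rose in control microglia and 0 fell. Of all tested genes 2349 were then called, 1102 of them higher. The 8 neutrophil markers, of which 7 were tested, summed to 71.9 to 173 CPM in repopulated libraries, 327 in control 2, 23.5 and 30.3 in controls 1 and 3, and 37.7 to 257 in wild-type libraries. The part of these in the members' values was not tested. A fit on the 7 libraries that carry Y-linked transcripts keeps control 2 alone, and assumes that the lone control library varies like the other groups. In it the members' median log2 fold change against wild type was 0.38, beside -0.13 over all genes of that fit. Fewer members passed than with all libraries, as did fewer of all tested genes. Hif1a was at 3.99-fold, Pgk1 at 3.17-fold, Aldoa at 1.35-fold and Pkm at 1.30-fold. When presence of Y-linked transcripts entered the model, 15 members rose, where 1596 of all tested genes were called, 963 of them higher.

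**Figure D4:**
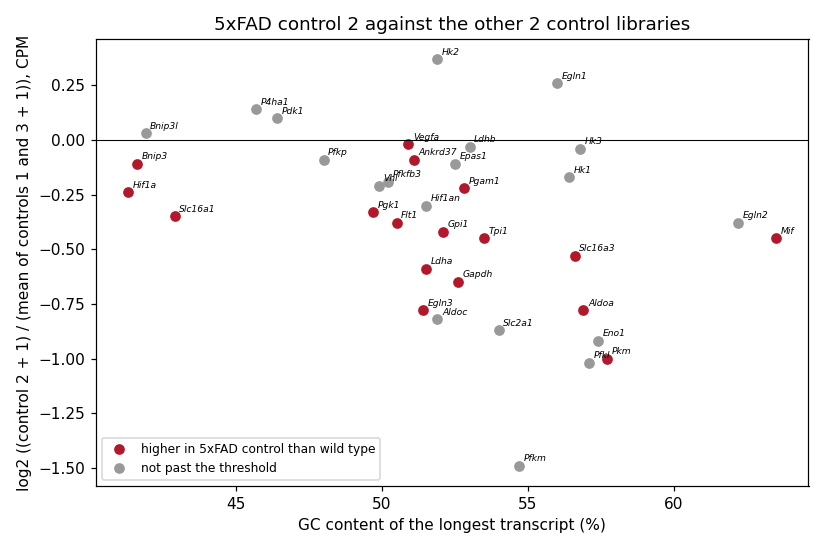
Log2 ratio of the level in control 2, plus 1 CPM, over the mean of controls 1 and 3, plus 1 CPM (y axis), against the GC content of the gene's longest GENCODE transcript in percent (x axis), 1 point for each of the 36 tested members, red where the gene rose in control microglia. Most points lie below 0, and the lowest are Pfkm at -1.49 and Pfkl at -1.02.

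The second comparison asked what differed after depletion and repopulation within 5xFAD mice. No member passed edgeR's test, where 0.568% of all tested genes did (0.352% higher and 0.216% lower). At an unadjusted p under 0.05, 2 members were higher in repopulated microglia (Hk1 and Vhl) and 3 lower (Slc16a1, Pgk1 and Hif1a), where 9.75% of all tested genes were higher and 8.78% lower. These counts lie near or under that background. DESeq2 called 0 of the 26 members with an adjusted p higher and 2 lower, where it called 4.44% and 4.98% of 7409 genes. By limma-voom 0 were higher and 1 lower, where it called 0.472% and 0.368% of all genes. The members' median log2 fold change was -0.02, beside -0.00 over all tested genes. In 10 members every repopulated library lay below every control library and in 4 above, where 15.7% and 15.0% of all tested genes did so. The 10 were Slc16a1, Hk2, Pgk1, Pdk1, Hif1a, Bnip3, P4ha1, Ankrd37, Vegfa and Flt1, which include 5 of the 6 tested HIF targets. The 4 were Hk1, Hk3, Hif1an and Vhl.

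Hif1a was nearest to the threshold, at 207 to 287 CPM in repopulated against 347 to 411 in control libraries. Its log2 fold change was -0.69 (SE 0.15, edgeR adjusted p = 0.0517), with a range of 0.000845 to 0.309 over 23 alternatives. Hif1a passed in 8 of these, among them DESeq2 (adjusted p = 0.000845) and limma-voom (adjusted p = 0.0434). The edgeR adjusted p was 0.0477, 0.0293 and 0.0407 without wild-type 1, wild-type 3 or repopulated 3. Without any 1 control library it was 0.0741 to 0.155, and without repopulated 1 or 2 it was 0.234 and 0.309. With presence of Y-linked transcripts in the model the log2 fold change was -0.63 (edgeR adjusted p = 0.166). With the GC and length correction it was -0.51 (edgeR adjusted p = 0.114). Pgk1 had 206, 199 and 208 CPM in repopulated against 357, 269 and 318 in control libraries (log2 fold change -0.62, SE 0.17, edgeR adjusted p = 0.0936, with 0.012 to 0.426 over the alternatives). Repopulated libraries were close to each other and all below control 2. DESeq2 called Pgk1 (adjusted p = 0.012), as did the 2 groups fitted alone (edgeR adjusted p = 0.0254) and the fit without wild-type 3 (edgeR adjusted p = 0.0451). No other alternative did. Without any 1 control or repopulated library its edgeR adjusted p was 0.117 to 0.379. With presence of Y-linked transcripts in the model its log2 fold change was -0.45 (edgeR adjusted p = 0.324). Flt1 and Slc16a1 had log2 fold changes of -0.57 and -0.49 (edgeR adjusted p = 0.344 and 0.154). The enzymes Gpi1, Aldoa, Pgam1 and Gapdh had log2 fold changes between -0.09 and 0.02, and Egln3 one of 0.03, with SE 0.15 to 0.18 for the enzymes and 0.46 for Egln3. Pkm and Eno1, which were low in control 2, were higher in repopulated than control microglia when control 2 stood alone for the controls (1.82-fold, edgeR adjusted p = 0.0385, and 1.94-fold, edgeR adjusted p = 0.0408). With all libraries their log2 fold changes were 0.12 and 0.28 (edgeR adjusted p = 0.812 and 0.491).

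The third comparison set repopulated microglia against wild type, and it shares its libraries with the comparisons above. Of the 36 tested members 14 rose and 0 fell, where 3.40% of all tested genes were called higher and 0.784% lower, 4.18% in all. The 14 were Gpi1, Aldoa, Tpi1, Gapdh, Pgk1, Pgam1, Pkm, Ldha, Slc16a3, Hif1a, Egln3, Bnip3, Flt1 and Mif. At an unadjusted p under 0.05, 19 were higher and 0 lower, where 8.45% and 6.61% of all tested genes were. DESeq2 called 18 higher and 0 lower, beside 4.60% and 1.66% of all genes, and limma-voom 13 and 0, beside 3.49% and 0.776%. The median log2 fold change over the tested members was 0.58, beside -0.02 over all tested genes with quartiles at -0.23 and 0.19. In 19 members every repopulated library lay above every wild-type library and in 0 below, where 9.13% and 6.82% of all tested genes did so.

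Egln3 rose 39.1-fold in repopulated microglia (log2 fold change 5.29, SE 0.54, edgeR adjusted p = 1.7e-05, 60.7-fold without wild-type 4) and Flt1 10.9-fold (log2 fold change 3.44, SE 0.32, edgeR adjusted p = 7.52e-06). Hif1a rose 2.79-fold (log2 fold change 1.48, SE 0.14, edgeR adjusted p = 7.52e-06), where control against wild type gave 4.49-fold, and Pgk1 rose 2.31-fold (edgeR adjusted p = 0.00026), where control gave 3.56-fold. Pkm rose 2.45-fold, Tpi1 2.36-fold, Mif 2.09-fold, Gapdh 2.04-fold, Aldoa 1.99-fold and Ldha 1.94-fold, with adjusted p of 0.00087, 0.000113, 0.0035, 0.000762, 0.00237 and 0.000878. Gpi1 rose 1.77-fold and Pgam1 1.64-fold (edgeR adjusted p = 0.00177 and 0.00939, and 0.061 for Pgam1 without repopulated 2). The calls of Slc16a3 and Bnip3 were narrow, at 1.95-fold and 1.64-fold (edgeR adjusted p = 0.049 and 0.0462). Slc16a3 lost its call without wild-type 2 or 4, control 1 or 3 or any 1 repopulated library (0.0521 to 0.32), and Bnip3 without wild-type 1, 2 or 4 or any 1 control or repopulated library (0.0537 to 0.211). Members that narrowly did not pass were Slc2a1 at 1.74-fold (edgeR adjusted p = 0.0592), Ankrd37 at 1.75-fold (0.0752) and Eno1 at 1.53-fold (0.098). Slc2a1 passed without wild-type 4 (0.045) or control 2 (0.02), Eno1 without control 2 (0.00735) and Ankrd37 without wild-type 3 (0.0385). Vegfa was at 2.79, 1.45 and 1.59 CPM in repopulated against 1.16, 1.33, 2.09 and 0.764 in wild-type libraries, with overlap (edgeR adjusted p = 0.673). With the GC and length correction 16 members rose, where 618 of all tested genes were called, 408 of them higher.

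Other genes of these pathways moved in both directions in control microglia. Of 119 further genes tested, 23 rose and 14 fell, where 10.1% of all tested genes were called higher and 8.04% lower. The counts of the shorter lists below have the same background. When control 2 stood alone for the controls fewer were called in either direction, as was so over all tested genes. On unscaled totals 13 rose and 23 fell. Over all tested genes, 814 of the 3079 called on unscaled totals were higher. Of 23 other glycolysis and pyruvate genes 3 rose and 4 fell with scaling. Pdp2, a phosphatase that activates pyruvate dehydrogenase, fell at 46.4 to 68.1 CPM in control against 86.5 to 116 in wild-type libraries (log2 fold change -0.84, edgeR adjusted p = 0.00225). Pfkfb4, a relative of Pfkfb3 and a known HIF target, fell 1.90-fold (edgeR adjusted p = 0.00527). Of 12 other transporter genes 3 rose and 2 fell. Slc2a5, the fructose transporter GLUT5 of microglia, was at 479 to 536 CPM in repopulated, 266 to 364 in control and 483 to 748 in wild-type libraries and fell 2.02-fold in control microglia (edgeR adjusted p = 0.000778). Slc16a6, a relative of the lactate transporters, fell 2.13-fold (edgeR adjusted p = 0.00245). Slc2a6, a lysosomal hexose transporter of macrophages, rose 3.32-fold (edgeR adjusted p = 0.0065), and 1.89-fold when control 2 stood alone for the controls (edgeR adjusted p = 0.331).

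In the side branches of glycolysis, 1 of 11 pentose phosphate genes rose and 1 fell in control microglia. Over all tested genes 10.1% were called higher and 8.04% lower. Tkt, transketolase, rose 1.48-fold in control and 1.51-fold in repopulated microglia against wild type (edgeR adjusted p = 0.00847 and 0.0162). Its control value had 0.368 when control 2 stood alone for the controls, and the repopulated value 0.0522 without wild-type 2, 0.0843 without repopulated 1 and 0.105 without repopulated 2. Of 17 glycogen genes 3 rose and 2 fell. Pygl, a glycogen phosphorylase, was at 12.5 to 16.9 CPM in repopulated, 19.9 to 28.1 in control and 7.09 to 17.0 in wild-type libraries and rose 2.25-fold in control microglia (edgeR adjusted p = 0.0066, and 0.249 when control 2 stood alone for the controls).

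Of 25 other HIF regulators tested 5 rose and 3 fell in control microglia, and of 36 other HIF targets 10 rose and 3 fell. Over all tested genes 10.1% were called higher and 8.04% lower. Rack1, a scaffold that aids oxygen-independent HIF destruction, was at 189, 179.7 and 186 CPM in repopulated, 246, 261 and 238 in control and 127, 126, 125 and 113 in wild-type libraries. The groups did not overlap and control was the highest, with a rise of 2.02-fold (log2 fold change 1.02, SE 0.11, edgeR adjusted p = 1.72e-05). Arnt2, a partner of HIF alpha subunits best known from neurons, was at 5.93, 9.33 and 7.21 CPM in repopulated, 9.51, 9.62 and 11.3 in control and 0.0482, 0.427, 1.36 and 0.494 in wild-type libraries and rose 17.3-fold (edgeR adjusted p = 0.0001, and 30.5-fold without wild-type 3). Summed neuronal markers were at 5.04 to 10.5 CPM in repopulated, 3.94 to 9.07 in control and 11.2 to 63.1 in wild-type libraries. Cited2, which competes with HIF for a coactivator and stands on both lists, rose 2.10-fold (edgeR adjusted p = 0.00434). Lox, lysyl oxidase, was at 21.8, 24.0 and 26.1 CPM in repopulated, 38.4, 37.6 and 50.4 in control and 0.386, 0.712, 0 and 0.719 in wild-type libraries. Wild type was near 0, and Lox rose 90.7-fold in control microglia (edgeR adjusted p = 7.93e-08, and 151-fold with limma-voom). Bhlhe40, a transcriptional repressor, was at 23.7, 25.8 and 30.5 CPM in repopulated, 39.7, 20.5 and 46.7 in control and 0.193, 0.712, 0.0486 and 0.719 in wild-type libraries and rose 83.0-fold (log2 fold change 6.38, SE 0.46, edgeR adjusted p = 3.96e-07). Ero1a, an oxidase of the secretory pathway, rose 1.93-fold (edgeR adjusted p = 0.000337).

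In repopulated against control microglia 0 of the 119 further genes passed edgeR's test, with 13 higher and 11 lower at an unadjusted p under 0.05. That is near the 9.75% and 8.78% of all tested genes at this threshold. DESeq2 called 2 higher and 3 lower, and limma-voom 0. In repopulated microglia against wild type 3.40% of all tested genes were called higher and 0.784% lower. Of the 119 further genes 8 rose and 0 fell in this comparison. They include Lox at 51.6-fold, Bhlhe40 at 62.2-fold, Arnt2 at 12.8-fold and Rack1 at 1.51-fold (edgeR adjusted p = 5.05e-07, 1.16e-06, 0.000562 and 0.00463), with Arnt2 at 22.7-fold without wild-type 3.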

How the data were processed

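RNA of microglia isolated as described in the series' design was sequenced in 10 libraries, from total RNA with Smart-Seq amplification, per the labels' protocols. The deposited table gives estimated counts, FPKM and TPM per gene. HISAT, Bowtie2 and build GRCm38.p6 are named in the submitters' processing notes. The quantifier is not given in the sources used here. The authors' deposited TPM were used for shares within enzyme families, with the deposited FPKM and estimated counts as alternatives. Of the nonzero estimated counts 20.1% were not whole (tolerance 0.001), and all were rounded to whole numbers for testing.

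Counts were filtered with filterByExpr, scaled by TMM and fitted in 1 model of the 3 groups with the robust quasi-likelihood test of edgeR 4.0.16 (R 4.3.3, limma 3.58.1, statmod 1.5.0, prior count 0.125). P-values were adjusted by Benjamini-Hochberg over all 12505 tested genes. The standard error of a log2 fold change is its size over the square root of the F statistic. The biological coefficient of variation was 27.3%. Alternatives included DESeq2 1.42.0, limma-voom, other scalings and filters, the replicate number as a block, a term for Y-linked transcripts and each library left out. Scripts were tested on simulated data.

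The members and the lists of other genes and markers were chosen with earlier results of these data known. All members could be named. Of each list of other genes, up to 4 with the smallest p in control against wild type, and up to 2 in each other comparison, could be named. For markers these were the most abundant and any called, and further markers were named after their values were seen. RefSeq matched 19725 of 19782 gene IDs, and 18974 had a GC content and length from GENCODE transcripts.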

Additional observations from a re-analysis of the deposited data

Results flagged for a closer look

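In 2 of the 36 tested members the values of the wild-type group held 1 library whose gap to the nearest other, divided by the range of the 4 libraries, passed Dixon's 95% critical value. Chance gives this in about 1 in 20 groups. Aldoc was at 170.2 CPM in wild-type 3 and at 7.73 to 14.4 CPM in the remaining 3. Pfkm was at 6.07 CPM in wild-type 3 and at 3.82 to 4.05 CPM in the remaining 3. The same library had the highest summed levels of neuron, astrocyte, oligodendrocyte and red blood cell markers among the wild-type libraries, with 63.1, 395, 139.9 and 283 CPM. Their part in these 2 values was not tested.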

How the results depend on the processing

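In control against wild type the number of members called stayed within 1.5 times of the 17 reported in every alternative but 1, with 15 to 20 when a library was left out. With only the libraries with Y-linked transcripts it was 8. In repopulated against control microglia 0 were called, where 71 of all tested genes were. DESeq2 called 2 lower, limma-voom 1, the fit with no filter 1, the filter of 5 CPM in 3 libraries 1 and the compared groups alone 2. Of all genes these fits called 698, 105, 166, 125 and 630. Leaving out a library gave 0 to 2 members, where 0 to 328 of all genes were called. With only the libraries with Y-linked transcripts, which keep control 2 alone, the members' median log2 fold change was 0.22, beside 0.04 over all genes. In repopulated against wild type the number was 11 to 18 beside 14. When a library was left out it was 11 to 16, where 284 to 688 of all genes were called. The cause of these differences was not tested. Aldoc turned its direction without wild-type 3, at a log2 fold change of 0.91 in control and 1.11 in repopulated against wild type, with ranges over the libraries left out of -1.57 to 0.91 and -1.38 to 1.11. The promoter motif was in 88.2% of tested members with GCGTG or CACGC counted as well. With the replicate number as a block 16, 0 and 13 members were called in the 3 comparisons, and in control microglia 16 other pathway genes rose and 7 fell. That fit called 1464 of all tested genes in control against wild type, 897 of them higher. The labels do not say that the numbers pair the libraries, and same-numbered libraries had correlations of -0.105 to 0.071 of their deviations from the group means. At an adjusted p threshold of 0.01 the members' counts were 15, 0 and 12, without a count over all tested genes beside them. Counts near 0, as for Epas1, Adm, Ndrg1 and Egln3 in wild type, limit the precision of a fold, and a fitted fold against such a group depends on the prior count.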
